A study of Mus musculus with 18 samples.

Results

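The mature miRNAs made from the miR-322, miR-503, miR-351, miR-542 and miR-450 hairpins of mouse chromosome X were followed across all groups of the series. They were taken by name from the table of normalized values: mmu-miR-322-5p, mmu-miR-322-3p, mmu-miR-503-5p, mmu-miR-351-5p, mmu-miR-450a-5p, mmu-miR-450b-5p, mmu-miR-450b-3p, mmu-miR-542-3p and mmu-miR-542-5p, 9 of 1900 mature names in the table. Small RNA was sequenced from NIH 3T3 mouse fibroblasts of TetON lines in 6 groups of 3 libraries. SUN1L cells express a luminal fragment of SUN1 that acts as a dominant negative and uncouples the LINC complex, the SUN and nesprin bridge between the cytoskeleton and the nucleus. KDEL cells express a GFP held in the endoplasmic reticulum and are their control. Both transgenes are doxycycline-inducible, and both lines were made by retroviral transduction and puromycin selection, the KDEL line being further enriched by fluorescence sorting, so each is 1 stable line. All 18 libraries come from cells kept with 1 µg/ml doxycycline for 48 h on fibronectin-coated polyacrylamide gels: SUN1L and KDEL cells on 308 kPa (stiff) and on 1 kPa (soft) gels, and KDEL cells on 308 kPa gels given 10 µM blebbistatin, which inhibits myosin II, or 25 µM Y27632. The study calls its replicates biological, the labels add nothing to this, and the p-values rest on the spread among the 3 libraries of each group.

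A miRNA is cut from a hairpin in a longer transcript, the arm at the 5′ side giving the 5p and the arm at the 3′ side the 3p product, and it pairs with target mRNAs mainly through its seed, bases 2 to 8. Hairpins that lie in 1 transcript can be made together and still differ in how well each arm is cut, loaded and kept. Mouse miR-322-5p is the counterpart of human miR-424-5p, and miR-322 and miR-503 are known in mouse myoblasts to rise as cells leave the cell cycle and differentiate, where they repress the phosphatase Cdc25a. The positions below are those of GRCm38, to which the deposited coordinates correspond, and all lie on the minus strand.

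The 7 hairpins span 6.35 kb of chromosome X. Mir322 (53054255 to 53054349), Mir503 (53053984 to 53054054) and Mir351 (53053255 to 53053353) lie inside the long non-coding RNA gene C430049B03Rik (53053112 to 53057190). After a gap of 3.77 kb come Mir542 (53049403 to 53049487), Mir450-2 (53048299 to 53048367), Mir450-1 (53048154 to 53048244) and Mir450b (53047997 to 53048078), which overlap no other gene in the RefSeq annotation of GRCm38.p6. All 9 miRNAs were found in RefSeq at the positions the deposited table gives. Their mature sequences are shown because no 2 of them have the same seed, so each can pair with its own set of targets; the seed is in capitals, and the order is that of the hairpins, 5′ to 3′.
mmu-miR-322-5p: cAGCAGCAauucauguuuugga
mmu-miR-322-3p: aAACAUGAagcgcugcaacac
mmu-miR-503-5p: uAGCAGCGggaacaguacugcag
mmu-miR-351-5p: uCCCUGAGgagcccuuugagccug
mmu-miR-542-5p: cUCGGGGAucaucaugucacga
mmu-miR-542-3p: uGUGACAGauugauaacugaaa
mmu-miR-450a-5p: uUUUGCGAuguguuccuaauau
mmu-miR-450b-5p: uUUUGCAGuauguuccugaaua
mmu-miR-450b-3p: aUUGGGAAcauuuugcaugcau

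Some of these sequences are near relatives. The seeds of mmu-miR-322-5p and mmu-miR-503-5p differ at 1 base, A8G, counted from the 5′ end with the base of mmu-miR-322-5p first. The seeds of mmu-miR-450a-5p and mmu-miR-450b-5p differ by G7A and A8G, with the base of mmu-miR-450a-5p first, and the whole sequences are the same at 15 of 22 positions. The 3p arm of Mir450-1, mmu-miR-450a-1-3p, has the seed of mmu-miR-450b-3p and differs from it at 2 of 22 positions. Whether any reads of this pair were assigned to the wrong miRNA was not tested. A sequence was matched by name for 427 of the 481 tested miRNAs, and only these were searched for seeds. Outside the cluster, 4 of them share the seed of mmu-miR-322-5p and 2 share that of mmu-miR-351-5p. The most abundant of each are shown for comparison.
mmu-miR-16-5p: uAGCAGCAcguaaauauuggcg
mmu-miR-125b-5p: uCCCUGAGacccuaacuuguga
No tested miRNA outside the cluster with a matched sequence has the seed of any other of the 9.

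Values are the normalized read counts deposited for each library. A deposited value is a whole number of reads times 1 factor of the library, with a floor of 1, so the reads themselves could be recovered; they totaled 1361360 to 8485822 over the libraries, and 1 read was worth 0.666 to 1.55. The library of blebbistatin replicate 3 stands apart from the other 17: it has the fewest reads, a median value of 15.5 over the 481 miRNAs that were tested (those that reached 10 in 3 or more libraries) against 39.1 to 212 in the others, and a mean rank correlation of 0.779 with its own group. The next lowest medians were those of the SUN1L libraries on 1 kPa, at 78.8, 39.1 and 87.2 in replicates 1 to 3. The KDEL libraries on 1 kPa had 103, 91.5 and 95.5. Among marker miRNAs, all 6 of the mesenchymal list were above the floor in every library, mmu-miR-21a-5p at 372419 or more. Of the lists for other cell types, mmu-miR-223-3p of blood cells and mmu-miR-133a-3p of muscle were at the floor in 11 libraries each, mmu-miR-141-3p of epithelium in 12 and mmu-miR-124-3p of neurons in 15. Others of the same lists were read in every library: mmu-miR-150-5p of blood cells at 2.58 to 25.0, mmu-miR-206-3p of muscle at 319 to 1373, mmu-miR-126a-3p of endothelium at 59.3 to 1169 and mmu-miR-9-5p of neurons at 2185 to 24173. Of the epithelial list, mmu-miR-200b-3p was read in every library at 38.7 to 279 and mmu-miR-200a-3p at 2.58 to 221.

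Some of these lists moved with the groups. On 1 kPa the endothelial list (2 miRNAs) summed to 258 to 552 in SUN1L and 559 to 788 in KDEL cells and the muscle list (3 miRNAs) to 334 to 526 in SUN1L and 527 to 643 in KDEL cells, both lower in SUN1L cells with no overlap. The neuronal list there summed to 6424 to 13165 in SUN1L and 12675 to 15337 in KDEL cells, the epithelial list to 199 to 434 in SUN1L and 148 to 234 in KDEL cells, and the blood list, of which 2 of 4 names were matched, to 5.00 to 11.4 in SUN1L and 4.85 to 9.51 in KDEL cells, all overlapping. The blood names not matched were mmu-miR-142a-3p and mmu-miR-142a-5p. The deposited names mmu-miR-142-3p and mmu-miR-142-5p were not used in their place, so the blood sums leave them out. On 308 kPa only the epithelial list did not overlap, at 477 to 661 in SUN1L and 205 to 287 in KDEL cells. The muscle list summed there to 845 to 972 in SUN1L and 664 to 936 in KDEL cells, the endothelial list to 689 to 787 in SUN1L and 609 to 1225 in KDEL cells, the neuronal list to 12579 to 13819 in SUN1L and 13507 to 20104 in KDEL cells, and the blood list to 14.6 to 26.0 in SUN1L and 10.9 to 15.7 in KDEL cells. In SUN1L cells the muscle, endothelial, epithelial and blood lists were each higher on 308 kPa than on 1 kPa with no overlap. In KDEL cells only the muscle and blood lists were. The mesenchymal list (6 miRNAs) summed to 502459 to 1232800 with blebbistatin. In untreated KDEL cells on 308 kPa it summed to 1654300 to 2502440, with no overlap. It overlapped between the lines and between the gels. The part of these lists in the results below was not tested.

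All 9 miRNAs passed the filter. The most abundant was mmu-miR-351-5p, which in mouse myoblasts is known to repress E2f3, with a median value of 8453 over the 18 libraries and 31.7% of the reads of the cluster. It was followed by mmu-miR-450a-5p with 17.4% and mmu-miR-542-3p with 14.3% of these reads. mmu-miR-542-5p, the other arm of Mir542, was the least abundant, with a median value of 30.5 and 0.137% of the reads. The 3p arm of Mir322 (10.9%) was more abundant than the 5p arm (7.15%), while for Mir450b the 5p arm led (9.05% against 1.90%). mmu-miR-503-5p had 7.45% of the reads. mmu-miR-450a-5p has identical sequences in 2 hairpins, whose reads cannot be told apart, and it was counted once.

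**Figure D1:**
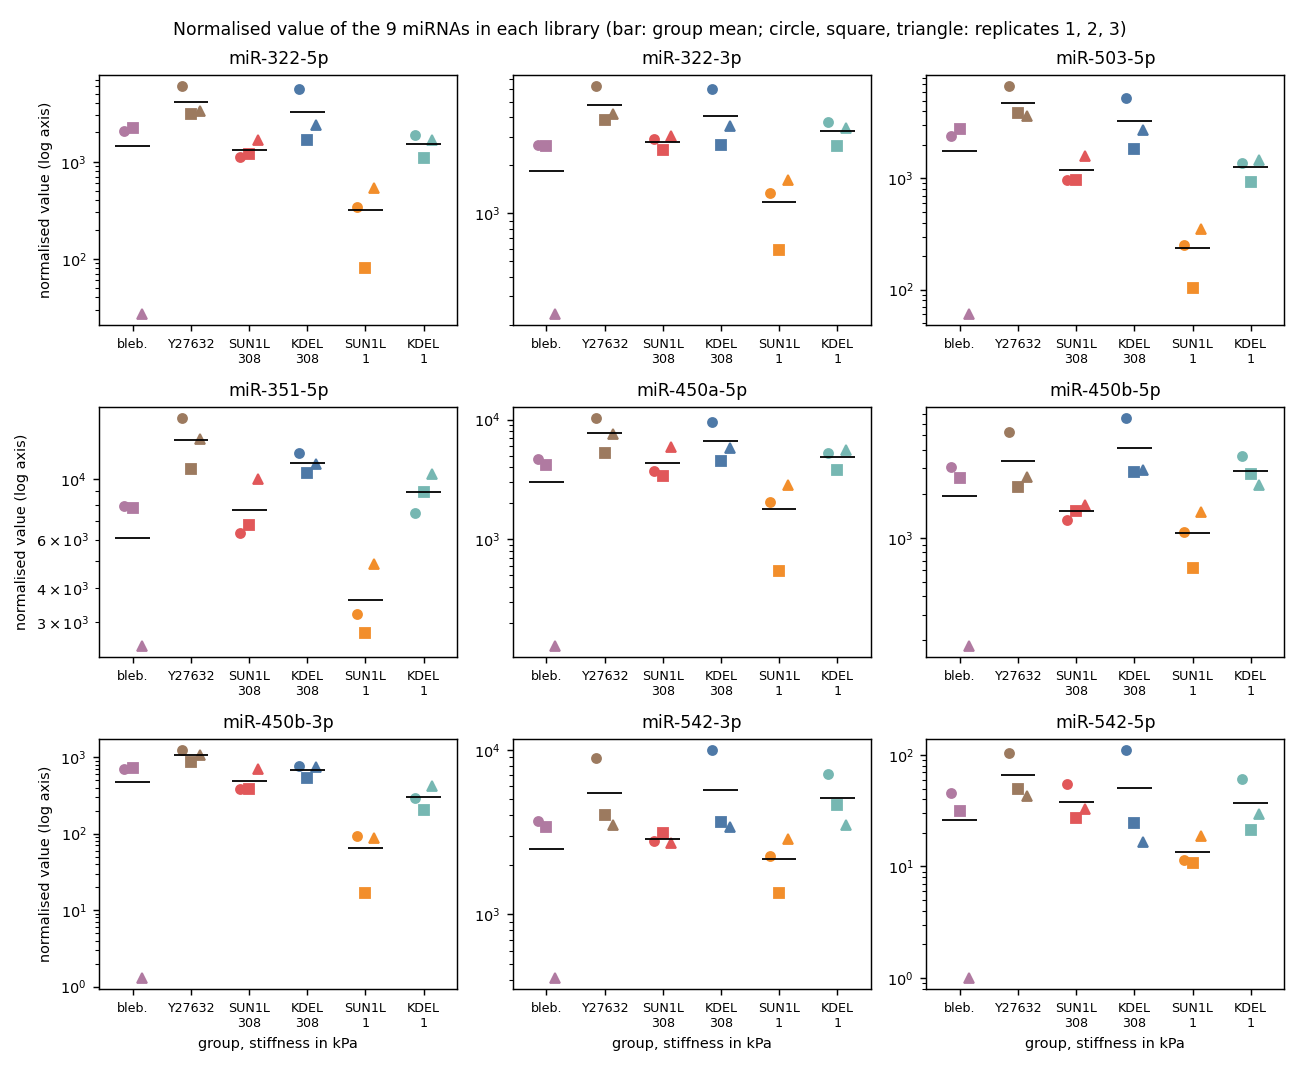
Normalized value (log axis) of each of the 9 miRNAs in every library, with circles, squares and triangles for replicates 1, 2 and 3, a bar for the group mean, and bleb. and Y27632 for the treated KDEL cells on 308 kPa. In each panel the 3 SUN1L libraries on 1 kPa lie below the 3 KDEL libraries on 1 kPa, and blebbistatin replicate 3 is the lowest library of all.

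The clearest difference was on the soft gel, where every one of the 9 was lower in SUN1L than in KDEL cells. mmu-miR-322-5p had values of 344, 79.4 and 540.0 in SUN1L cells, against 1864, 1087 and 1667 in KDEL cells. mmu-miR-503-5p, which in human cells represses cyclin D1, had 251, 104 and 354 in SUN1L cells, against 1359.5, 932 and 1468 in KDEL cells. mmu-miR-450b-3p had 92.3, 16.6 and 87.2 in SUN1L cells, against 291, 205 and 423 in KDEL cells. In each of these 3 the highest SUN1L library was well below the lowest KDEL library, and SUN1L replicate 2 was the lowest. mmu-miR-351-5p had 3203, 2730.2 and 4872 in SUN1L cells, against 7529, 8958 and 10457 in KDEL cells. mmu-miR-542-3p, which in human cells represses the apoptosis inhibitor survivin, had 2254, 1350.3 and 2881 in SUN1L cells, against 7165, 4603 and 3477 in KDEL cells, the narrowest gap of the 5 miRNAs given here by library. The groups did not overlap for any of the 9, where 41.4% of the tested miRNAs were lower in SUN1L cells with no overlap. As these are bulk samples, fewer cells that make the cluster and less of it in each cell cannot be told apart.

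In the limma fit over all 18 libraries, which share 1 estimate of the spread, none of the 9 passed an adjusted p (Benjamini-Hochberg over 481 miRNAs) of 0.05 for SUN1L against KDEL on 1 kPa, with 2.70% of all tested miRNAs called. In this fit 3 of the 9 had an unadjusted p under 0.05, where 49 of the 481 tested miRNAs did. Of the 9, edgeR on the recovered reads called none and DESeq2 called mmu-miR-503-5p, where they called 15 and 37 of the 481 tested miRNAs. The log2 fold changes ran from −2.61 to −1.24, with adjusted p in limma from 0.185 for mmu-miR-351-5p to 0.444 for mmu-miR-542-5p. With blebbistatin replicate 3 left out of the limma fit, a library that belongs to neither group, 8 of the 9 were lower in SUN1L cells, where 43.9% of all tested miRNAs were called, 32 higher and 179 lower. The log2 fold change was −2.61 ± 0.54 (SE) for mmu-miR-322-5p with a limma adjusted p of 0.00147, −2.54 ± 0.43 for mmu-miR-503-5p with 0.000303, and −2.49 ± 0.48 for mmu-miR-450b-3p with 0.00085. These 3 had the largest drops. The others called lay between −1.72 ± 0.46 for mmu-miR-450a-5p (limma adjusted p 0.00665) and −1.24 ± 0.42 for mmu-miR-542-3p (0.0245), and mmu-miR-542-5p, at −1.29 ± 0.56, did not pass (0.0719).

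The tested miRNAs as a whole were lower in SUN1L cells on 1 kPa, with a median log2 fold change of −0.68 and 77.3% of them below 0, and this median moved to −0.05 when the values were scaled by median-of-ratios factors. The median of the 9 was −1.58 as deposited and −0.92 with that scaling, 0.90 and 0.87 below the median of all tested miRNAs. With blebbistatin replicate 3 left out and the same scaling, 6 of the 9 were lower in SUN1L cells, where 39.3% of all tested miRNAs were called, 85 higher and 104 lower: mmu-miR-322-5p (−1.92 ± 0.42), mmu-miR-503-5p (−1.86 ± 0.33), mmu-miR-450b-3p (−1.82 ± 0.34), mmu-miR-450a-5p (−1.03 ± 0.33), mmu-miR-322-3p (−0.89 ± 0.26) and mmu-miR-351-5p (−0.66 ± 0.22). Each run of consecutive library numbers in the titles holds 1 library of each untreated group, and within all 3 runs all 9 were lower in SUN1L cells on 1 kPa, with medians of −1.67, −2.16 and −1.10 on the log2 scale. In the limma fit of the 12 untreated libraries with the run as a block, all 9 were called lower, where 48% of the tested miRNAs were called.

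**Figure D2:**
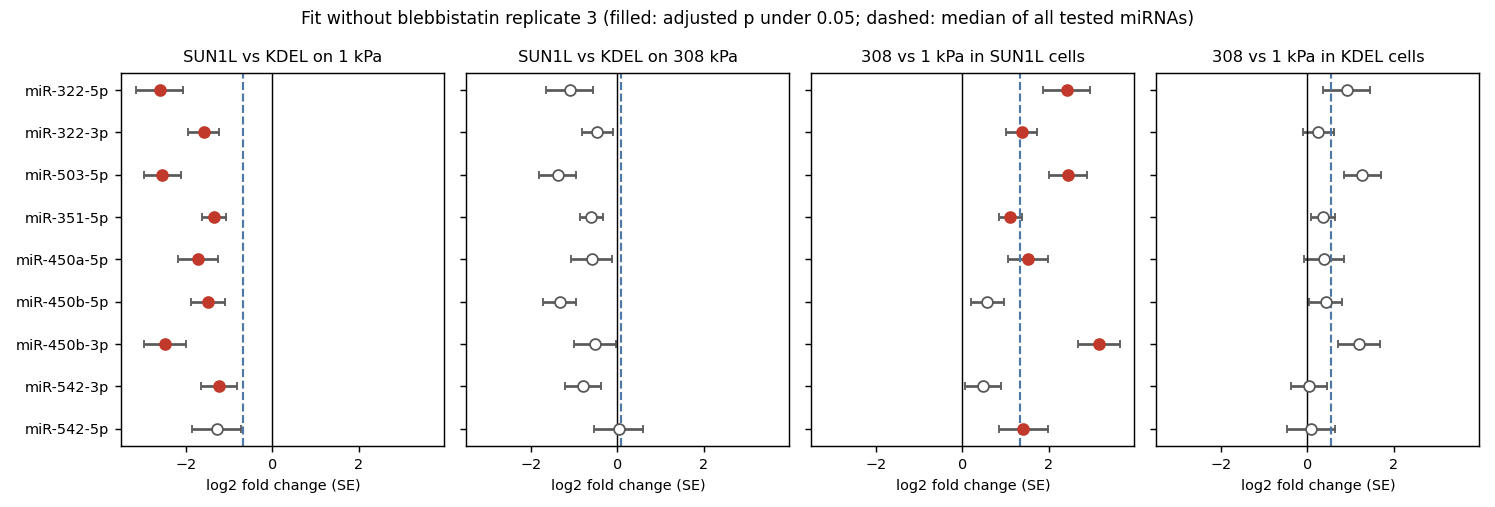
Log2 fold change (point) with its SE (bar) of the 9 miRNAs in 4 comparisons, from the limma fit over the 17 libraries other than blebbistatin replicate 3; filled points passed an adjusted p of 0.05 and the dashed line is the median of all 481 tested miRNAs. On 1 kPa all 9 points lie left of the dashed line, at −0.68, and 8 are filled, while on 308 kPa none is filled.

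Along the cluster, the size of this drop did not follow the order of the hairpins. The largest drops, of mmu-miR-322-5p and mmu-miR-503-5p at the 5′ end and of mmu-miR-450b-3p at the 3′ end, stood at opposite ends, and the smallest, of both Mir542 arms, lay between them. The log2 fold changes of the arms of 1 hairpin also differed in size. In the Mir322 hairpin the 5p arm had a log2 fold change of −2.61 and the 3p arm −1.58. In the Mir450b hairpin the order was the other way, with −1.49 for the 5p and −2.49 for the 3p arm. The log2 ratio of 5p to 3p reads of Mir450b overlapped between the lines on 1 kPa, however. It was 3.56 to 5.19 in SUN1L and 2.44 to 3.72 in KDEL cells (exact permutation p = 0.3, adjusted 0.415). The other arms of the hairpins were rare, with mean values over all libraries of 157 for mmu-miR-503-3p, 82.5 for mmu-miR-351-3p, 110.5 for mmu-miR-450a-1-3p and 9.06 for mmu-miR-450a-2-3p. None of these 4 was called in the fit of all 18 libraries. Without blebbistatin replicate 3, where 43.9% of the tested miRNAs were called, 3 of the 4 were lower in SUN1L cells on 1 kPa, at −2.08 for mmu-miR-503-3p, −2.28 for mmu-miR-351-3p and −2.16 for mmu-miR-450a-1-3p; mmu-miR-450a-2-3p was at −0.79 (limma adjusted p 0.311).

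**Figure D3:**
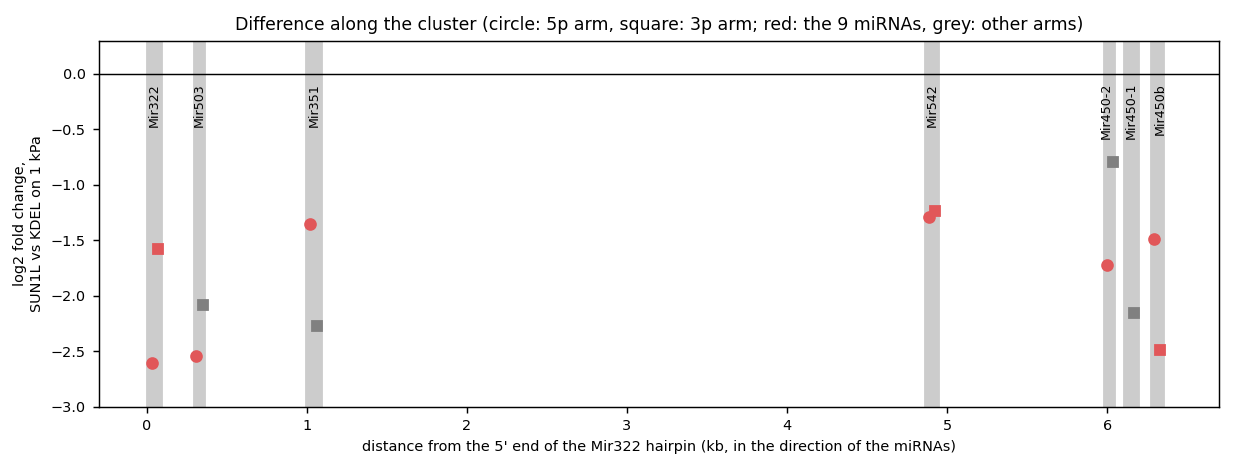
Log2 fold change of SUN1L against KDEL cells on 1 kPa (vertical axis; limma, 17 libraries) of each arm against its distance in kb from the 5′ end of the Mir322 hairpin (horizontal axis), with hairpins as grey bands. Circles are 5p and squares 3p arms, the 9 miRNAs are red and the other 4 arms grey; both ends of the cluster hold points near −2.5.

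As a share of all miRNA reads, which does not depend on the deposited factors, the 9 together made up 2490.5, 1844 and 2598 RPM (reads per 1000000 miRNA reads) in SUN1L cells on 1 kPa, against 5988, 5617 and 5871 in KDEL cells on 1 kPa. On 308 kPa they made up 3259.8, 3656 and 4213 in SUN1L cells, against 9205, 5143 and 6153 in KDEL cells. The lines did not overlap on either gel, and the mean was 0.397 times that of KDEL cells on 1 kPa and 0.543 times on 308 kPa. For each, the exact two-sided permutation test gave p = 0.1, the smallest that 3 against 3 libraries allow, and 0.2 after adjustment over the 6 comparisons. KDEL replicate 1 on 308 kPa was far above the other KDEL libraries on that gel; within the 3 runs of library numbers the ratio of SUN1L to KDEL was 0.354, 0.711 and 0.685 on 308 kPa, and 0.416, 0.328 and 0.442 on 1 kPa.

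**Figure D4:**
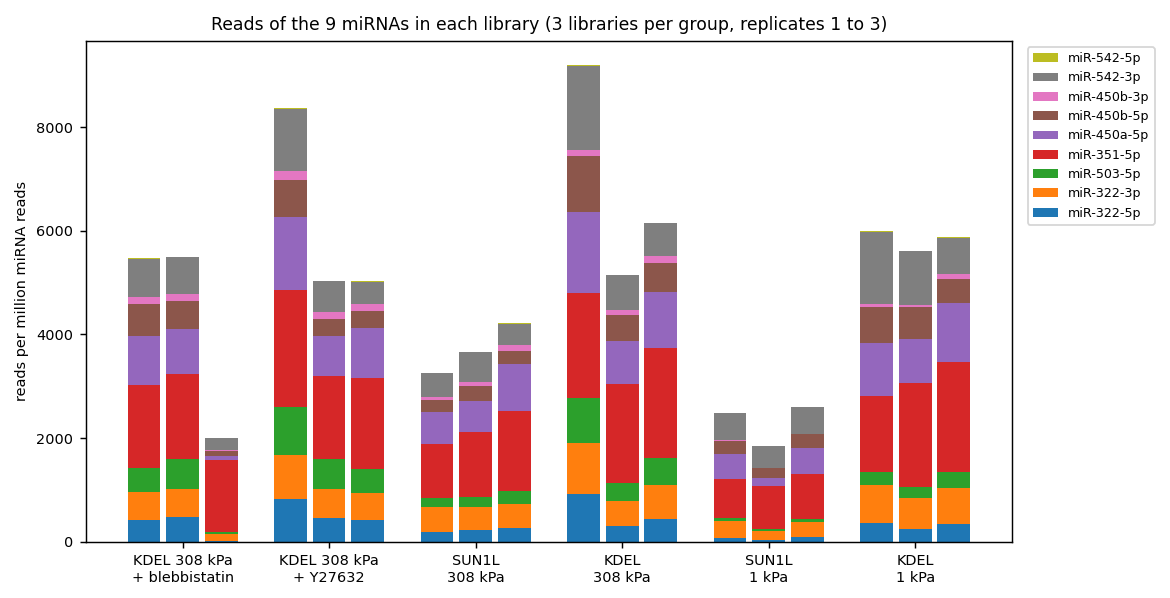
RPM of the 9 miRNAs in every library (stacked bars from 0, colored by miRNA, replicates 1 to 3 from left to right in each group). The SUN1L bars are below the KDEL bars on both gels, and KDEL replicate 1 on 308 kPa (9205) and Y27632 replicate 1 (8366) are the tallest.

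On the stiff gel fewer of the 9 were separated between the lines. mmu-miR-503-5p had 969, 970.2 and 1595 in SUN1L cells, against 5226, 1852 and 2699 in KDEL cells. mmu-miR-450b-5p had 1331, 1529 and 1688 in SUN1L cells, against 6569, 2835 and 2926 in KDEL cells. These 2, mmu-miR-351-5p and mmu-miR-542-3p did not overlap between the lines, 4 of the 9, where 5.41% of the tested miRNAs were lower in SUN1L cells with no overlap. mmu-miR-322-5p had 1124, 1206 and 1677 in SUN1L cells, against 5621, 1674 and 2365 in KDEL cells, so that the lines touched at 1 library. In the limma fit of all 18 libraries none of the 9 was called for SUN1L against KDEL on 308 kPa, where 3.12% of the tested miRNAs were. None had an unadjusted p under 0.05, where 29 of the 481 tested miRNAs did. Without blebbistatin replicate 3 none was called either, where 3.74% were, and 3 had an unadjusted p under 0.05, where 49 of 481 did. Of the 9, edgeR called none and DESeq2 called mmu-miR-450b-5p, where they called 16 and 19 of the 481 tested miRNAs.

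The log2 fold change on 308 kPa was −1.37 ± 0.43 for mmu-miR-503-5p (limma adjusted p 0.0935, 17 libraries) and −1.33 ± 0.39 for mmu-miR-450b-5p (0.0629). The others lay between −1.10 for mmu-miR-322-5p and 0.03 for mmu-miR-542-5p, whose sign turned under other scalings. The median of the 9 was −0.60, against 0.08 for all tested miRNAs. With median-of-ratios scaling and without blebbistatin replicate 3, mmu-miR-503-5p (−1.44 ± 0.33, limma adjusted p 0.0105) and mmu-miR-450b-5p (−1.39 ± 0.33, 0.0113) were lower in SUN1L cells, where 4.37% of the tested miRNAs were called, 19 higher and 2 lower, the 2 lower being this pair. Within the runs of library numbers, 9, 8 and 7 of the 9 were lower in SUN1L cells on 308 kPa, with medians of −1.36, −0.47 and −0.20 on the log2 scale; run 1 holds the high KDEL library. With the run as a block the same 2 were called lower, mmu-miR-503-5p with a limma adjusted p of 0.0190 and mmu-miR-450b-5p with 0.0249, where 5.41% of the tested miRNAs were called.

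Whether the SUN1L difference changed with stiffness was tested as an interaction. None of the 9 was called in the fit of all 18 libraries, where 0.208% of the tested miRNAs were, or without blebbistatin replicate 3, where again 0.208% were. Over all 18 libraries none had an unadjusted p under 0.05 in limma, where 13 of 481 tested miRNAs did, and edgeR and DESeq2 called none. Without blebbistatin replicate 3, 2 of the 9 had an unadjusted p under 0.05, where 160 of 481 did. The interaction was largest for mmu-miR-450b-3p, at 1.96 ± 0.68 (limma adjusted p 0.0651, 17 libraries), and smallest for mmu-miR-450b-5p, at 0.16 ± 0.55 (0.844), the other arm of the same hairpin, whose sign turned under other scalings. With the run as a block, 1 of the 9 was called, mmu-miR-450b-3p (limma adjusted p 0.0313), where 14.1% of the tested miRNAs were. In that fit 5 of the 9 had an unadjusted p under 0.05, where 175 of 481 did. The median of the 9 was 1.12, against 0.76 for all tested miRNAs.

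Stiff against soft gels in SUN1L cells, the values of mmu-miR-450b-3p were 382, 382 and 694 on 308 kPa, against 92.3, 16.6 and 87.2 on 1 kPa. With the values given above, mmu-miR-322-5p and mmu-miR-503-5p were likewise higher in every library on 308 kPa than in any on 1 kPa. Of the 9, 7 did not overlap between the gels, where 65.7% of the tested miRNAs were higher on 308 kPa with no overlap; mmu-miR-450b-5p and mmu-miR-542-3p overlapped. In the fit of all 18 libraries none of the 9 was called, where 4.16% of the tested miRNAs were. In that fit 2 of the 9 had an unadjusted p under 0.05, where 201 of the 481 tested miRNAs did. Of the 9, edgeR called none and DESeq2 called mmu-miR-450b-3p, where they called 10 and 110 of the 481. Without blebbistatin replicate 3, 7 of the 9 were higher on 308 kPa, where 69.9% of all tested miRNAs were called, so the share of the 9 was near that background; with the run as a block 7 were again called, where 70.9% were. The median of the 9 was 1.41 and that of all tested miRNAs 1.34.

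Relative to this general shift, which fell to 0.15 with median-of-ratios scaling, the members parted. With that scaling and without blebbistatin replicate 3, mmu-miR-450b-3p (1.87 ± 0.34, limma adjusted p 0.000219), mmu-miR-503-5p (1.14 ± 0.33, 0.00871) and mmu-miR-322-5p (1.11 ± 0.42, 0.0346) were higher on 308 kPa in SUN1L cells, 3 of the 9, where 51.6% of the tested miRNAs were called, 141 higher and 107 lower. mmu-miR-542-3p and mmu-miR-450b-5p stood at −0.83 ± 0.39 (0.0766) and −0.73 ± 0.33 (0.0707), against 0.48 and 0.58 as deposited, and mmu-miR-351-5p at −0.20 against 1.11. As a share of reads the 9 made up 1.61 times as much on 308 kPa as on 1 kPa in SUN1L cells, with no overlap (exact permutation p = 0.1, adjusted 0.2), and 1.31, 1.98 and 1.62 times within the runs.

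In KDEL cells the gels differed less. mmu-miR-503-5p had 5226, 1852 and 2699 on 308 kPa, against 1359.5, 932 and 1468 on 1 kPa, and mmu-miR-450b-3p had 758, 529 and 755 on 308 kPa, against 291, 205 and 423 on 1 kPa. These 2 and mmu-miR-351-5p did not overlap, 3 of the 9, where 40.7% of the tested miRNAs were higher on 308 kPa with no overlap. None of the 9 was called over all 18 libraries, where 0% of the tested miRNAs were. None of the 9 had an unadjusted p under 0.05 in limma, where 13 of 481 did, and edgeR and DESeq2 called none. Without blebbistatin replicate 3 none was called, where 7.07% were. In that fit 2 of the 9 had an unadjusted p under 0.05, where 169 of 481 tested miRNAs did: mmu-miR-503-5p (1.27 ± 0.43, limma adjusted p 0.0606) and mmu-miR-450b-3p (1.19 ± 0.48, 0.0981). With the run as a block these 2 were higher on 308 kPa, with limma adjusted p of 0.0282 and 0.0401, where 20.4% of the tested miRNAs were called. The median of the 9 was 0.39, against 0.54 for all tested miRNAs, and with median-of-ratios scaling it turned to −0.11, against 0.05. The share of reads was 1.17 times that on 1 kPa with overlapping groups (exact permutation p = 0.7), and without KDEL replicate 1 on 308 kPa the difference turned to −178 RPM.

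The mixture of miRNAs within the cluster differed between the groups, and these percentages and ratios are free of any scaling between libraries. mmu-miR-322-5p took 1.31 to 3.68% of the reads of the cluster in SUN1L cells on 1 kPa, against 4.36 to 6.02% in KDEL cells on 1 kPa. On 308 kPa it took 5.74 to 6.15% in SUN1L cells, against 5.91 to 9.99% in KDEL cells. mmu-miR-503-5p, its neighbor, took 1.73 to 2.41% in SUN1L and 3.74 to 5.09% in KDEL cells on 1 kPa, and 4.87 to 5.85% in SUN1L and 6.54 to 9.29% in KDEL cells on 308 kPa. mmu-miR-542-3p had the other order between gels in SUN1L cells, with 9.93 to 15.8% on 308 kPa and 19.6 to 22.3% on 1 kPa. mmu-miR-450b-5p likewise took 6.19 to 7.68% on 308 kPa and 10.2 to 10.3% on 1 kPa in SUN1L cells.

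The Mir322 hairpin gave fewer 5p reads per 3p read in SUN1L cells and on soft gels. The ratio of 5p to 3p reads was 0.256, 0.136 and 0.336 in SUN1L cells on 1 kPa, against 0.495, 0.414 and 0.483 in KDEL cells on 1 kPa. On 308 kPa it was 0.386, 0.485 and 0.551 in SUN1L cells, against 0.926, 0.620 and 0.674 in KDEL cells. On the log2 scale the difference of SUN1L from KDEL cells was −1.03 on 1 kPa and −0.64 on 308 kPa, and cells on 308 kPa were higher than those on 1 kPa by 1.05 in the SUN1L and 0.66 in the KDEL line. None of these 4 pairs of groups overlapped, and each gave an exact two-sided permutation p of 0.1, the smallest possible, and an adjusted p of 0.257 over 18 such tests of 3 hairpins. Between Y27632-treated and untreated KDEL cells the ratio overlapped, and in the blebbistatin group replicates 1 and 2 had 0.769 and 0.854 while replicate 3 had 0.118.

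For Mir450b the 5p to 3p ratio was lower on 308 kPa than on 1 kPa in SUN1L cells, with a difference of −2.59 on the log2 scale and means of 1.69 ± 0.37 on 308 kPa and 4.28 ± 0.83 on 1 kPa (SD, n = 3 each, log2) and no overlap (exact permutation p = 0.1). For Mir542 the log2 ratio in SUN1L cells was −6.27 ± 0.58 on 308 kPa, against −7.24 ± 0.33 on 1 kPa, again with no overlap, on 9 to 48 reads of the 5p arm per library. Y27632-treated cells were above untreated KDEL cells in this Mir542 ratio, with means of −6.36 and −7.11 on the log2 scale and no overlap (exact permutation p = 0.1, adjusted 0.257). The other 11 of the 18 comparisons of arms had overlapping groups, that of Mir450b between the lines on 1 kPa among them.

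**Figure D5:**
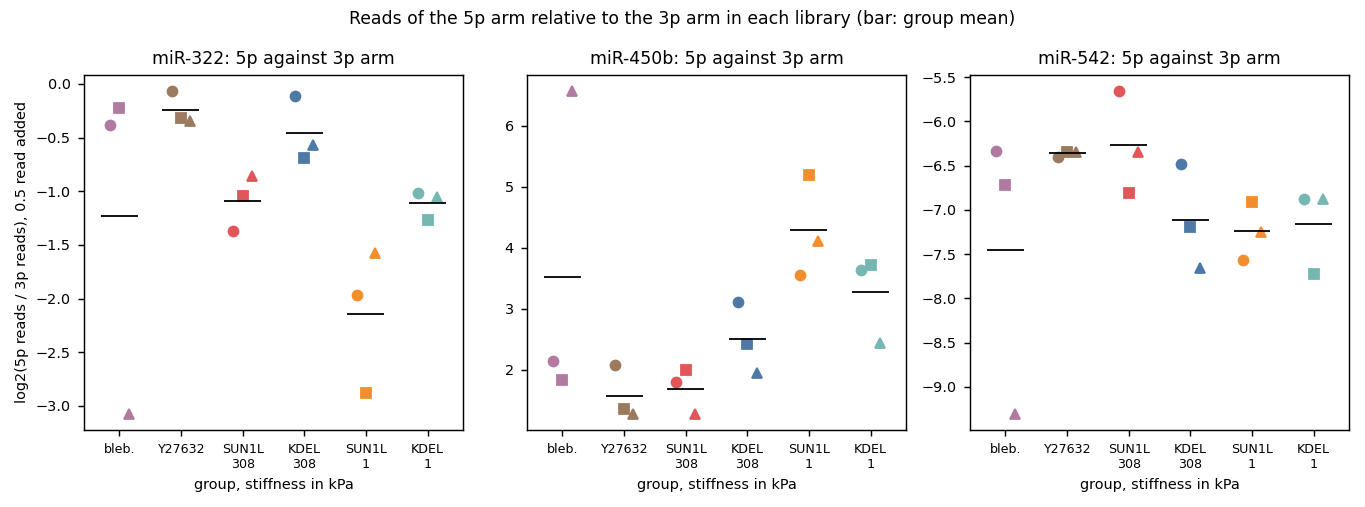
Log2 ratio of 5p to 3p reads of the Mir322, Mir450b and Mir542 hairpins in every library (symbols for replicates as in the plot of values, bar for the group mean). For Mir322 the SUN1L points lie below the KDEL points on each gel, and blebbistatin replicate 3 is the lowest point for Mir322 and Mir542 and the highest for Mir450b.

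Both inhibitors were compared with the same 3 untreated KDEL libraries on 308 kPa that serve the comparison of lines. The difference with blebbistatin rested largely on replicate 3. mmu-miR-322-5p had 2068, 2243 and 27.1 with blebbistatin, against 5621, 1674 and 2365 in untreated cells, and mmu-miR-503-5p had 2398, 2785 and 60.6, against 5226, 1852 and 2699. In replicate 3 mmu-miR-450b-3p was at 1.29, which is 1 read, and mmu-miR-542-5p at the floor with 0 reads, while mmu-miR-351-5p was at 2456. Relative to the mean of replicates 1 and 2, replicate 3 was from 3.21-fold lower for mmu-miR-351-5p to 551-fold lower for mmu-miR-450b-3p. It was 79.6-fold lower for mmu-miR-322-5p and 42.7-fold lower for mmu-miR-503-5p. mmu-miR-450b-3p, mmu-miR-322-5p and mmu-miR-503-5p, the most reduced here, also had the largest drops of the 9 in SUN1L cells on 1 kPa. Whether these falls share a cause was not tested. Of the 9, mmu-miR-322-3p and mmu-miR-351-5p were lower in all 3 libraries than in any untreated one, where 9.98% of the tested miRNAs were. None of the 9 was called, where 0% of the tested miRNAs were. In limma 4 of the 9 had an unadjusted p under 0.05, where 43 of 481 tested miRNAs did. edgeR and DESeq2 called none of the 9, where DESeq2 called 30 of the 481. The median log2 fold change of the 9 was −1.74, against −0.92 for all tested miRNAs, and without replicate 3 it was −0.43, against 0.08. Without replicate 3, 0% were called and none of the 9 had an unadjusted p under 0.05, where 23 of 481 did.

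With Y27632 the libraries overlapped those of untreated cells for 8 of the 9. mmu-miR-503-5p had 6764, 3826 and 3634 with Y27632, against 5226, 1852 and 2699 in untreated KDEL cells. mmu-miR-450b-3p had 1237, 874 and 1079, against 758, 529 and 755, the 1 of the 9 whose groups did not overlap, where 32.2% of the tested miRNAs were higher with no overlap. None of the 9 was called with or without blebbistatin replicate 3 (0% of the tested miRNAs in each fit), and edgeR and DESeq2 called none. None of the 9 had an unadjusted p under 0.05 in limma in either fit, where 9 of 481 did with that library and 62 without it. The log2 fold changes ran from −0.28 for mmu-miR-450b-5p to 0.74 for mmu-miR-542-5p, with standard errors of 0.27 to 0.56 without blebbistatin replicate 3. The median of the 9 was 0.28, against 0.43 for all tested miRNAs, and it turned to −0.12, against 0.04, with median-of-ratios scaling. The share of reads was 0.899 times that of untreated cells, with 8366, 5039 and 5023 RPM with Y27632 and overlapping groups (exact permutation p = 0.5); without KDEL replicate 1 the difference turned to 495 RPM more with Y27632.

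Ordered by group mean without blebbistatin replicate 3, mmu-miR-322-5p stood at 321 ± 231 in SUN1L cells on 1 kPa, 1336 ± 299 in SUN1L cells on 308 kPa, 1539 ± 404 in KDEL cells on 1 kPa, 2155 ± 124 with blebbistatin, 3219.9 ± 2107 in untreated KDEL cells on 308 kPa and 4139.6 ± 1646 with Y27632 (SD, n = 3, and 2 with blebbistatin). mmu-miR-503-5p had the order SUN1L on 1 kPa (236 ± 125), SUN1L on 308 kPa (1178 ± 361), KDEL on 1 kPa (1253 ± 283), blebbistatin (2592 ± 273), untreated KDEL on 308 kPa (3259 ± 1755) and Y27632 (4742 ± 1755). For both, the lowest group did not overlap the next, and KDEL cells on 1 kPa did not overlap the 2 blebbistatin libraries above them. All other neighbors in this order overlapped, SUN1L cells on 308 kPa and KDEL cells on 1 kPa among them.

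Over the 18 libraries the values of the 9 were correlated. The rank correlation of their log2 values had a median of 0.789 over the 36 pairs, from 0.569 for mmu-miR-351-5p with mmu-miR-542-5p to 0.981 for mmu-miR-322-5p with mmu-miR-503-5p, and over the 17 libraries without blebbistatin replicate 3 the median was 0.75. All miRNAs share the factor of their library in these values, and the tested miRNAs outside the cluster had a median rank correlation of 0.665 with the mean profile of the 9 over 18 libraries and 0.602 over 17. A correlation with a mean is not like one between pairs, so these medians are no background for the 0.789. The 5 outside the cluster whose profile was most like that mean were mmu-miR-199b-5p (0.973), mmu-miR-872-5p (0.971), mmu-let-7c-2-3p (0.953), mmu-let-7a-1-3p (0.944) and mmu-miR-106b-5p (0.926), and the same 5 came first, in the same order, over the 17 libraries (0.968 to 0.912). Of the 9, mmu-miR-322-5p was nearest to the mean profile (0.986) and mmu-miR-542-5p farthest from it (0.769), though each is itself part of that mean. mmu-miR-199b-5p and mmu-miR-872-5p were nearer to it than every member but mmu-miR-322-5p.

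The miRNAs found to share a seed with mmu-miR-322-5p come from other chromosomes: mmu-miR-16-5p, mmu-miR-15b-5p, mmu-miR-195a-5p and mmu-miR-15a-5p, a family known to restrain the cell cycle. mmu-miR-16-5p averaged 1414 ± 856 in SUN1L and 4249.6 ± 994 in KDEL cells on 1 kPa, and its mean over all libraries, 7639, was above that of mmu-miR-322-5p, 2000.2. Without blebbistatin replicate 3 all 4 were lower in SUN1L cells on 1 kPa (median −2.16), where 43.9% of the tested miRNAs were called, and all 4 higher on 308 kPa than on 1 kPa in SUN1L cells (median 2.86), where 69.9% were. In KDEL cells 1 of the 4, mmu-miR-15b-5p, was higher on 308 kPa than on 1 kPa (limma adjusted p 0.0423), where 7.07% were called. None was called on 308 kPa between the lines (median −0.45), and in the fit of all 18 libraries none was called in any comparison. With median-of-ratios scaling and without blebbistatin replicate 3, none of the 4 was called between the gels in KDEL cells. All 4 were still lower in SUN1L cells on 1 kPa (median −1.49), where 39.3% of the tested miRNAs were called. In SUN1L cells all 4 were still higher on 308 kPa (median 1.57), where 51.6% were. mmu-miR-125b-5p and mmu-miR-125a-5p, which share the seed of mmu-miR-351-5p, were more abundant than it, with means of 163104 and 39556 against 8614. Without blebbistatin replicate 3 both were lower in SUN1L cells on 1 kPa (median −1.39, against the same 43.9%) and higher on 308 kPa than on 1 kPa in SUN1L cells (median 2.67, against 69.9%), and mmu-miR-125b-5p was higher on 308 kPa in KDEL cells (limma adjusted p 0.0423). Neither was called on 308 kPa between the lines (median 0.15), and in the fit of all 18 libraries neither was called in any comparison, with limma adjusted p on 1 kPa of 0.471 for mmu-miR-125b-5p and 0.431 for mmu-miR-125a-5p. With median-of-ratios scaling and without blebbistatin replicate 3, neither was called between the gels in KDEL cells. Both were still lower in SUN1L cells on 1 kPa (median −0.70, against 39.3%). In SUN1L cells both were still higher on 308 kPa (median 1.36, against 51.6%).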

How the data were processed

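Small RNA libraries of 18 samples were compared. The authors trimmed adapters (1 mismatch), dropped reads under 15 nt, aligned and filtered reads in AvadisNGS and counted those whose 5′ end matched a mature miRNA of miRBase release 20; the deposited values are a normalized signal with a floor of 1, and the scaling method is not given in the sources used here. The labels name mm9, but positions in the table are those of GRCm38. Above the floor every value up to 1000 reads was a whole multiple of 1 step per library within 0.001 read (100% of values), so reads were recovered as value over step; the floor was taken as 0 reads, although 1 read is worth less than 1 in 8 libraries. Copies of a name were reduced to that of highest mean. limma (version 3.58.1, R 4.3.3) with an intensity trend was run on log2(value + 1), which understates changes of low miRNAs, of 481 miRNAs; edgeR (4.0.16) and DESeq2 (1.42.0) were run on the recovered reads. The fits were tried on simulated reads with planted fold changes. These held no outlying library, so they could not test the effect of blebbistatin replicate 3. Shares and arm ratios (0.5 read added) were tested by exact permutation. Other scalings, filters, pseudocounts and sets of libraries were tried. Replicates are numbered in accession order and runs are consecutive library numbers in the titles. Named miRNAs are the 9 members in every comparison, the other arms of their hairpins, tested miRNAs with a member's seed, the 5 of most similar profile and mmu-miR-21a-5p; other marker miRNAs, outside this rule, were named after their values were seen. The members and lists were chosen with earlier results of these data known.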

Additional observations from a re-analysis of the deposited data

How the results depend on the processing

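The calls depended on blebbistatin replicate 3 and on the samples that share the estimate of the spread. For SUN1L against KDEL on 1 kPa, where the fit of all 18 libraries called 13 miRNAs and none of the 9, the counts were 37 and 1 with DESeq2, 90 and 6 with only the groups compared, 189 and 6 without blebbistatin replicate 3 and with median-of-ratios scaling, 189 and 8 with the 12 untreated libraries and 231 and 9 with these and the library run as covariate. Leaving out 1 library at a time gave 11 to 211 miRNAs and 0 to 8 of the 9, the highest without blebbistatin replicate 3 and none of the 9 otherwise. For 308 against 1 kPa in SUN1L cells, with 20 and none, they were 10 and none with median-of-ratios scaling and with edgeR, 7 and none with no filter, 110 and 1 with DESeq2, 278 and 7 with only the groups compared, 248 and 3 without blebbistatin replicate 3 and with median-of-ratios scaling, 322 and 7 with the untreated libraries and 341 and 7 with the run; leaving out 1 library gave 6 to 336 and 0 to 7, the highest again without blebbistatin replicate 3. For SUN1L against KDEL on 308 kPa, with 15 and none, they were 19 and 1 with DESeq2, 21 and 1 with only the groups compared, 21 and 2 without blebbistatin replicate 3 and with median-of-ratios scaling, and 26 and 2 with the run. For 308 against 1 kPa in KDEL cells, with none, they were 120 and 2 with only the groups compared, 13 and none without blebbistatin replicate 3 and with median-of-ratios scaling, 1 and none with the untreated libraries and 98 and 2 with the run; leaving out 1 library gave 0 to 34 miRNAs. The interaction, with 1 miRNA and none of the 9, gave 5 miRNAs with no filter, 4 with log2(value + 5), 68 and 1 of the 9 with the run, and 0 with median-of-ratios scaling, with or without blebbistatin replicate 3, with edgeR, with DESeq2, with only the groups compared and with the untreated libraries, and 1 to 4 with 1 library left out. With blebbistatin, DESeq2 called 30 miRNAs and leaving out 1 library 0 to 1; with Y27632 the groups compared alone gave 9.

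Of 1665 log2 fold changes of the 9 under alternatives, 1491 kept direction and call, 81 kept direction and passed the threshold, and 93 turned sign. For SUN1L against KDEL on 1 kPa none turned. Most turned under median-of-ratios scaling, edgeR, DESeq2, or that scaling without blebbistatin replicate 3 (the combined setting), and values are given in this order. The sign turned for SUN1L against KDEL on 308 kPa for mmu-miR-542-5p (−0.054 with median-of-ratios scaling, −0.0015 with log2(value + 5), −0.45 with edgeR, −0.47 with DESeq2 and −0.030 with the combined setting). The sign turned under these 4 settings for 308 against 1 kPa in KDEL cells for mmu-miR-322-3p (−0.25, −0.23, −0.19 and −0.30), mmu-miR-351-5p (−0.14, −0.23, −0.16 and −0.19), mmu-miR-450a-5p (−0.11, −0.11, −0.064 and −0.16), mmu-miR-450b-5p (−0.079, −0.052, −0.0084 and −0.13), mmu-miR-542-3p (−0.47, −0.40, −0.37 and −0.51) and mmu-miR-542-5p (−0.40, −0.12, −0.094 and −0.45). The sign turned under these 4 settings for 308 against 1 kPa in SUN1L cells for mmu-miR-351-5p (−0.14, −0.16, −0.19 and −0.20), mmu-miR-450b-5p (−0.67, −0.70, −0.72 and −0.73) and mmu-miR-542-3p (−0.78, −0.79, −0.81 and −0.83). The sign turned under these 4 settings in the interaction for mmu-miR-450b-5p (−0.59, −0.65, −0.71 and −0.60) and mmu-miR-542-3p (−0.31, −0.39, −0.44 and −0.32). In the interaction it also turned for mmu-miR-351-5p (−0.035 with DESeq2 and −0.0046 with the combined setting). The sign turned with blebbistatin for mmu-miR-351-5p (0.16 with DESeq2), mmu-miR-450b-3p (0.061 with the combined setting) and mmu-miR-542-5p (0.065 with the combined setting). The sign turned under these 4 settings with Y27632 for mmu-miR-322-3p (−0.12, −0.25, −0.17 and −0.15), mmu-miR-351-5p (−0.14, −0.18, −0.13 and −0.17), mmu-miR-450a-5p (−0.16, −0.25, −0.18 and −0.18) and mmu-miR-542-3p (−0.39, −0.52, −0.43 and −0.42). It also turned with Y27632 for mmu-miR-322-5p (−0.11 with edgeR and −0.030 with DESeq2) and mmu-miR-542-5p (−0.070 with edgeR). With 1 library left out, for SUN1L against KDEL on 308 kPa mmu-miR-542-5p ran from −0.50 to 0.83, for 308 against 1 kPa in KDEL cells mmu-miR-322-3p ran from −0.076 to 0.51, mmu-miR-542-3p ran from −0.46 to 0.32 and mmu-miR-542-5p ran from −0.72 to 0.62, in the interaction mmu-miR-450b-5p ran from −0.19 to 0.55, with blebbistatin mmu-miR-450b-3p ran from −4.07 to 0.082 and mmu-miR-542-5p ran from −2.18 to 0.088, with Y27632 mmu-miR-450b-5p ran from −0.65 to 0.12 and mmu-miR-542-3p ran from −0.41 to 0.50.

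Of 24 comparisons of shares and arms, 17 kept their direction in every alternative. With 1 library left out, the difference in RPM ran from −178 to 1854 for 308 against 1 kPa in KDEL cells and from −1803 to 495 with Y27632. The log2 arm ratio ran from −1.27 to 0.15 (Mir322), −0.51 to 1.86 (Mir450b) and −0.90 to 0.58 (Mir542) with blebbistatin, and for Mir542 from −0.36 to 0.083 for SUN1L against KDEL on 1 kPa and −0.27 to 0.32 for 308 against 1 kPa in KDEL cells. No paired analysis was possible by replicate number because the labels give no such numbers; the fit with the run of library numbers as covariate is a blocked analysis by run, and its values are those given with the run. At 0 to 94 reads per library, mmu-miR-542-5p is limited by depth. The cause of these changes was not tested.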
